A study of Homo sapiens with 35 samples.

Results

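The early response of BE(2)-C cells to all-trans retinoic acid (ATRA) was measured by comparing the 3 arrays of cells given 5 uM ATRA for 6 h with the 3 arrays of cells given the vehicle, DMSO, for 6 h. Both sets were chosen by their titles, and they make 6 of the 35 arrays of the series. BE(2)-C is a single human neuroblastoma line with amplified MYCN, grown in serum-containing medium, so the comparison describes 1 line in culture. The other arrays used here held cells given 1 mM valproic acid (VPA), a histone deacetylase inhibitor, or 5 uM ATRA with 1 mM VPA for 6 h (3 arrays each), and cells given ATRA or DMSO for 24 h and 72 h (3 arrays each, except 2 for DMSO at 72 h). The labels speak of triplicates and do not say whether these came from separate cultures, so p-values measure only the spread between these samples, which may be technical. RNA was taken from whole cultures, in which a change in the number of cells of a kind and a change in RNA per cell cannot be told apart.

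Retinoic acid enters the nucleus with a carrier protein, CRABP2, and binds retinoic acid receptors (RARA, RARB, RARG) that sit on DNA as pairs with retinoid X receptors. Without ligand the pair holds corepressors at its target genes, and ligand exchanges these for coactivators, so that direct targets can rise within hours. Known targets include the enzymes that break the ligand down (CYP26A1, CYP26B1), receptors themselves and HOX genes. In neuroblastoma the retinoid is known for slowing division and for bringing out neurites over days, and a related retinoid is given to patients as maintenance treatment.

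The 6 arrays were alike in overall signal. Their median intensity lay between 55.85 and 57.47 and their lower quartile between 21.08 and 21.45, a level near which a gene is not shown to be above background. The log2 ratio of 3' to 5' control probe sets, a sign of RNA quality, was 0.21 to 0.38 with DMSO and 0.14 to 0.27 with ATRA. Of 13 neuroblastoma markers 12 were measured, with 1, INSM1, below the lower quartile, and their summed intensity was 34418 to 35568 with DMSO and 31771 to 33018 with ATRA. Summed Schwann and glial markers lay at 155 to 178 and 153 to 165, epithelial markers at 290.1 to 316 and 331 to 357, haematopoietic and endothelial markers at 292 to 322 and 311 to 316, and mesenchymal markers, which neuroblastoma lines can express, at 6972 to 7020.4 and 5833 to 6703. None of the markers of these last 4 lists passed the test by limma. An unadjusted p under 0.05 was found for 3 of them (2 mesenchymal and 1 epithelial). Of the 12 neuroblastoma markers 1 rose and 2 fell, as given below, against 1.03% and 0.586% of all genes.

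After 6 h few genes passed the test with ATRA, and more of them were rises than falls. Of 11940 genes 193 passed an adjusted p of 0.05, which is 1.62% of all genes; 123 were higher (1.03%) and 70 lower (0.586%). Each gene's spread was taken from all 35 arrays, those of later times included, so the count also depends on arrays outside the comparison. A fit of only the arrays compared called 266 genes, 166 of them among the 193. Without DMSO 24 h replicate 1, which is not in the comparison, 241 passed. With array weights, which give noisier arrays less say, 549 passed, 263 higher and 286 lower, so the larger number of rises did not hold there, and 6347 of the 11940 genes had a negative change. In the fit of all 35 arrays without weights the rises were also the larger changes: 27 rises and 2 falls reached 2-fold. The median fold was 1.57 for rises and 1.40 for falls. A fold here is the ratio of intensity plus 1 between group means on the log2 scale. Among these 11940 genes the largest rise was 9.48-fold and the largest fall 2.14-fold. The median log2 change of all genes was -0.01. Over all probe sets, with or without a gene name, 1.14% passed. In all 193 genes the 3 ATRA arrays lay on one side of the 3 DMSO arrays, which was so, upward, in 8.58% of all genes and, downward, in 10.7%.

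**Figure D1:**
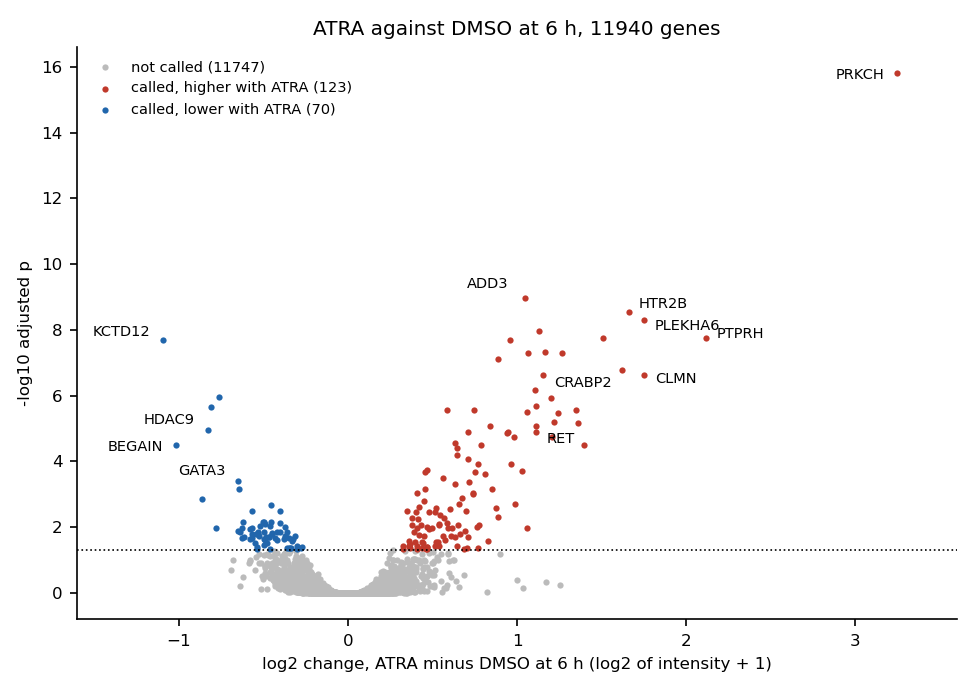
Log2 change with ATRA (x axis) against -log10 of the adjusted p (y axis) for each of 11940 genes, one point per gene, with the dotted line at an adjusted p of 0.05. Of the points above the line 123 lie to the right and 70 to the left, and PRKCH stands alone at a log2 change of 3.24.

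The number of calls was lower without any 1 of the 6 arrays. Such a fit leaves 1 group an array short, which by itself lowers precision. A lost call therefore does not show that it rested on a particular array. Without DMSO replicate 1, 2 or 3 it was 129, 109 or 120, and without ATRA replicate 1, 2 or 3 it was 122, 121 or 123. The falls gave way most, to 38, 20 and 37 without each DMSO array and 33, 33 and 35 without each ATRA array, against 91, 89 and 83, and 89, 88 and 88, for the rises. In all 6 of these fits 71 of the 123 rises and 11 of the 70 falls kept their call, while 36 rises and 38 falls lost it in 4 or more.

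The largest rise was in PRKCH, which encodes protein kinase C eta. Its intensity was 67.9, 56.6 and 62.9 in the 3 DMSO arrays and 622, 591 and 584 in the 3 ATRA arrays. The groups lay far apart and the spread within each was small, at 62.4 ± 5.6 and 599 ± 20.5 (SD, n = 3 each). The log2 change was 3.24 ± 0.13 (SE, adjusted p = 1.6e-16), and a second, dimmer probe set of the gene gave 2.27. None of the other 10 measured protein kinase C and D genes passed, where 1.03% of all genes rose and 0.586% fell. The 11 had a median log2 change of -0.03.

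Among genes with a single symbol PTPRH, a receptor-type tyrosine phosphatase, had the next largest rise. HTR2B, a serotonin receptor that couples to phospholipase C, came after PLEKHA6 and CLMN, which are given below. A probe set without a single gene symbol rose more than PTPRH, with a log2 change of 2.41. PTPRH read 47.5, 44.2 and 32.6 with DMSO and 172, 196 and 175 with ATRA, a 4.33-fold rise (log2 change 2.12 ± 0.19, adjusted p = 1.7e-08), while the other 16 receptor-type phosphatases measured did not pass. HTR2B read 57.1, 64.6 and 64.7 with DMSO and 202, 211 and 183 with ATRA, 3.16-fold higher (1.66 ± 0.14, adjusted p = 2.8e-09). In neither gene did the groups overlap. Of 41 neurotransmitter receptor genes HTR2B was the only one called higher, and 2 were called lower. For both lists the shares over all genes were 1.03% higher and 0.586% lower.

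**Figure D2:**
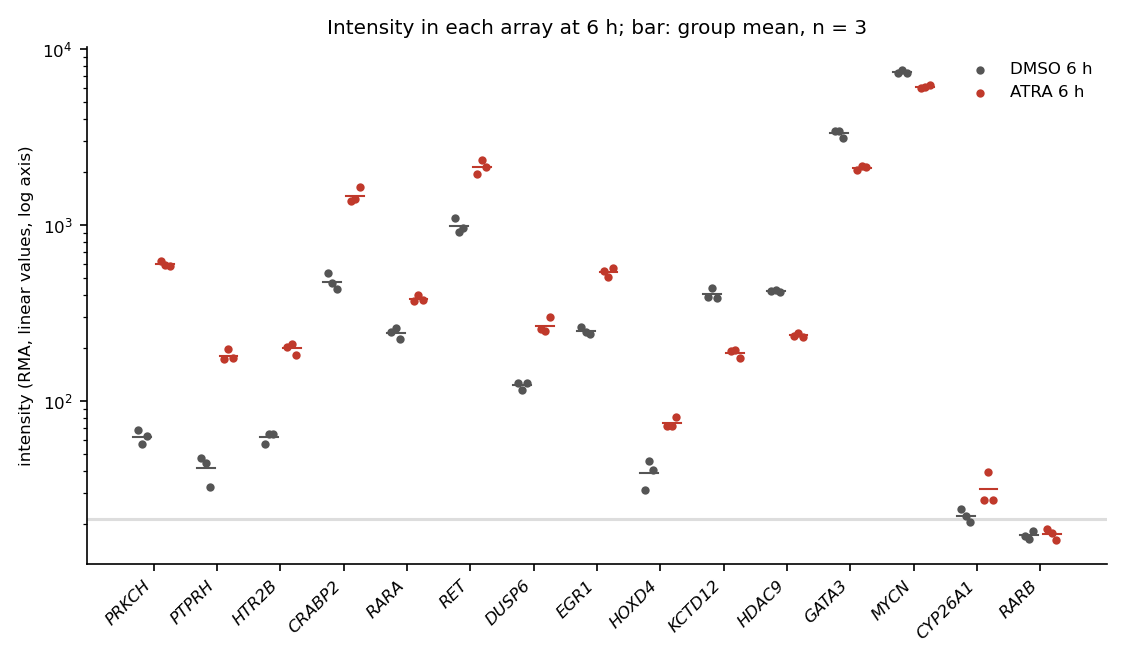
Intensity on a log axis in each DMSO (grey) and ATRA (red) array at 6 h for 15 genes; bars mark the means of 3 arrays and the grey band the lower quartile of the arrays. The 2 sets of points are apart for the first 13 genes, from PRKCH to MYCN; CYP26A1 and RARB lie near or under the band and did not pass the test.

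Among 20 measured genes of retinoid binding, synthesis and breakdown the carrier, CRABP2, was the one that passed. It read 531, 466 and 429.9 with DMSO and 1358, 1398 and 1635 with ATRA (476 ± 51.2 and 1463 ± 149.8, SD, n = 3 each). Every ATRA array exceeded every DMSO array, and the rise was 3.07-fold (log2 change 1.62 ± 0.17, adjusted p = 1.7e-07). The other 19 did not pass, though 5 of the 20 had an unadjusted p under 0.05 and other settings called 1 to 2. The median log2 change of the 20 was 0.03, where 1.03% of all genes rose and 0.586% fell.

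The breakdown enzymes were still near background. CYP26A1 read 24.4, 22.1 and 20.4 with DMSO and 27.5, 39.7 and 27.3 with ATRA, so each ATRA array was above each DMSO array, but 1 of them set most of the difference (log2 change 0.46 ± 0.17, adjusted p = 0.32). CYP26B1 read 15.4, 17.3 and 15.7 against 20.9, 22.2 and 20.8, again without overlap (0.38 ± 0.14, adjusted p = 0.27), below or around the lower quartile of the arrays. DHRS3, a retinal reductase, had a log2 change of 0.05 ± 0.19 (adjusted p = 1). At these intensities a change of CYP26A1 and CYP26B1 was not well measurable, though AQP1, at 28.8 with DMSO, did pass. When ATRA was added to VPA, CYP26A1 again showed no overlap. It read 18.5, 30.0 and 17.0 with VPA and 32.4, 35.2 and 36.2 with both agents (log2 change 0.68, adjusted p = 0.068).

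Of 19 retinoid receptor and coregulator genes 3 rose and 0 fell, against 1.03% and 0.586% of all genes. The list had a median log2 change of 0.05. RARA read 245, 259 and 224 with DMSO and 367, 399.6 and 373 with ATRA, with no overlap, a 1.57-fold rise (0.65 ± 0.10, adjusted p = 6.5e-05). NRIP1, a corepressor that binds liganded nuclear receptors, rose 1.39-fold (0.48 ± 0.09, adjusted p = 0.0035), a call lost when its probe sets were averaged (0.55, adjusted p = 0.18). NR2F1, an orphan nuclear receptor, rose 1.29-fold (adjusted p = 0.032), but lost its call in 5 of the 6 fits without 1 array, with the mean of its probe sets, after a second quantile normalization, in the fit of only the arrays compared and with an intensity trend and robust prior. The other receptors did not pass: RARG moved by 0.12 on the log2 scale (adjusted p = 0.95), and RARB, at mean intensities of 17.2 and 17.6, by 0.02.

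A list of 30 genes reported as retinoid targets held 25 measured ones, of which 9 rose, 0 fell and 16 did not pass. Their median log2 change was 0.14, and 22 of the 25 were positive. Of all genes 1.03% passed upward and 0.586% downward. The 9 were CRABP2, RET, DUSP6, PLAT, BHLHE40, HOXD4, TGM2, MEIS1 and NRIP1. The list was drawn up with earlier results of these arrays known, so its count is no independent evidence.

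PLAT, tissue plasminogen activator, was the steadiest of these. It read 361, 359 and 359 with DMSO and 749, 781 and 735 with ATRA, 2.09-fold higher (log2 change 1.07 ± 0.10, adjusted p = 5e-08). The transcriptional repressor BHLHE40 rose 2.04-fold (1.03 ± 0.16, adjusted p = 2e-04), or by 0.65 on the log2 scale with the mean of its probe sets. TGM2, tissue transglutaminase, rose 1.62-fold from 34.8 to 57.0, a call lost in 3 of the 6 fits without 1 array; averaging its probe sets gave 0.27 on the log2 scale, with an adjusted p of 0.053.

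Homeobox genes of the HOX clusters, which set position along the body axis, held few calls. Of 27 HOX and TALE genes 2 rose and 0 fell, against 1.03% and 0.586% of all genes. By limma 7 of the 27 had an unadjusted p under 0.05, against 973 of all 11940 genes. Other settings called 2 to 5 of them, and 19 had positive changes. The list had a median log2 change of 0.05. HOXD4 read 31.2, 45.6 and 40.4 with DMSO and 71.9, 72.0 and 81.0 with ATRA, a 1.92-fold rise with no overlap (0.94 ± 0.13, adjusted p = 1.3e-05; 0.59 with a pseudocount of 32). MEIS1, a TALE partner of HOX proteins, rose 1.55-fold from 170.2 to 264 (0.63 ± 0.11, adjusted p = 4.7e-04). Many of the uncalled HOX genes were at background, HOXB1 at 23.3 and HOXA2 at 16.5 among them with DMSO.

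RET, which encodes the kinase that GDNF signals through, was the single called gene among 20 of the RET, GFRA and neurotrophin receptor list. It read 1088, 909 and 965 with DMSO and 1933, 2347 and 2139 with ATRA. The groups did not overlap, and the rise was 2.17-fold (log2 change 1.11 ± 0.15, adjusted p = 8.3e-06; 1.01 in its second probe set). Its coreceptor genes GFRA1, GFRA2 and GFRA3 had log2 changes of -0.13, -0.06 and -0.05, with adjusted p = 0.93, 1 and 1. NTRK2, the receptor of brain-derived neurotrophic factor, had one of 0.12 (adjusted p = 1) at intensities of 40.2 to 43.3 with DMSO and 40.2 to 54.3 with ATRA. ALK had one of 0.39 (adjusted p = 0.34). By limma 3 of the 20 genes of this list had an unadjusted p under 0.05, as did 973 of all 11940 genes. The calls over all genes were 1.03% higher and 0.586% lower.

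Genes that act back on ERK kinases, or that follow their activity, moved in part. Of 19 ERK feedback genes 3 rose and 0 fell, against 1.03% and 0.586% of all genes. The list had a median log2 change of -0.03. DUSP6, which dephosphorylates ERK, read 127, 116 and 126 with DMSO and 255, 248 and 299 with ATRA, 2.16-fold higher (1.11 ± 0.12, adjusted p = 6.9e-07). IER3, an early response gene tied to cell survival, rose 2.30-fold from 86.4 to 199 (adjusted p = 1.1e-06). SPRY4, an inhibitor of receptor kinase signalling, rose 1.29-fold; its call was lost in 5 of the 6 fits without 1 array, and a second, dim probe set had the opposite sign (-0.17).

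Of 27 immediate early genes 4 rose and 2 fell, against 1.03% and 0.586% of all genes. The list had a median log2 change of 0.00. EGR1, a zinc finger transcription factor, read 263, 247 and 239.8 with DMSO and 548, 507 and 570.4 with ATRA, 2.16-fold higher with no overlap (1.11 ± 0.13, adjusted p = 2e-06). MAFF, a small MAF factor, rose 2.30-fold, KLF2 rose 1.33-fold, and IER3 was the fourth. The falls were ARC, which shapes synapses in neurons, from 70.7 to 40.8 (1.71-fold, adjusted p = 0.011, a log2 change of -0.78, or -0.50 with a pseudocount of 32), and ATF3, a stress-induced factor, from 81.4 to 57.2 (1.41-fold, adjusted p = 0.014). ARC lost its call in 2 and ATF3 in 4 of the 6 fits without 1 array.

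S1PR1, a receptor of sphingosine 1-phosphate, read 141, 183 and 164 with DMSO and 335, 373 and 359 with ATRA (log2 change 1.13 ± 0.10, adjusted p = 1.1e-08). AQP1 and AQP3, water channels, rose 2.32-fold and 2.16-fold from 28.8 and 37.8, and with a pseudocount of 32 the log2 change of each was 0.72 in place of 1.22 and 1.11. LRRC32, which holds latent TGF-beta at the cell surface, rose 2.63-fold from 96.9 to 256 (adjusted p = 3.1e-05). FZD7, a Wnt receptor, rose 2.09-fold from 109.8 to 229 (adjusted p = 3.2e-06), alone among 20 Wnt readouts. The shares over all genes were 1.03% higher and 0.586% lower.

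RGS16, which shortens G protein signalling, read 877, 1089.8 and 1033 with DMSO and 2464, 2444 and 2291 with ATRA (1.27 ± 0.12, adjusted p = 5.1e-08). The guanine nucleotide exchange factor ARHGEF3 rose 2.56-fold, from 55.7 to 144, and the endosomal RAB20 2.55-fold, from 31.0 to 80.3. RAB20 lies close to background with DMSO, and its log2 change was 0.83 with a pseudocount of 32 in place of 1.35.

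NAV2, first described as a retinoic acid-induced neuron navigator gene, read 332, 324 and 309 with DMSO and 738, 708 and 724 with ATRA, 2.24-fold higher and with tight groups (1.17 ± 0.11, adjusted p = 4.6e-08). PLEKHA6, a pleckstrin homology domain protein, rose 3.37-fold from 52.3 to 178. CLMN, calmin, an actin-binding membrane protein, rose as much, from 28.1 to 95.5, with a log2 change of 1.75, or 1.09 with a pseudocount of 32. ADD3, an adducin of the spectrin cytoskeleton, was named after its values were seen, because of its 6 probe sets: the brightest read 779, 751 and 689 with DMSO and 1440.3, 1616 and 1527 with ATRA (1.05 ± 0.08, adjusted p = 1.1e-09), and all the others also had positive changes, from 0.05 to 1.31.

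TMC6, a transmembrane channel-like gene, rose 2.84-fold from 40.0 to 115, and PELO, a factor that rescues stalled ribosomes, 2.22-fold from 597 to 1329.9. IRF9, the DNA-binding part of the interferon-stimulated gene factor, read 165, 133 and 184 with DMSO and 339, 313 and 294 with ATRA (0.98 ± 0.13, adjusted p = 1.8e-05). The other 31 measured genes of the MHC class I and interferon list did not pass, where 1.03% of all genes rose and 0.586% fell. The 32 had a median log2 change of 0.03. SKIL, an inhibitor of SMAD signalling, rose 2.09-fold (adjusted p = 0.011), a call lost in 3 of the 6 fits without 1 array, with a log2 change of 0.56 in place of 1.06 with the mean of its probe sets.

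TLE3, a corepressor of the Groucho family, read 203, 236 and 190.1 with DMSO and 503, 517 and 466 with ATRA, 2.36-fold higher (log2 change 1.24 ± 0.15, adjusted p = 3.4e-06). TLE1, of the same family and named after its values were seen, read 492, 490.5 and 513 with DMSO and 341, 328 and 389 with ATRA, 1.42-fold lower (adjusted p = 0.0067). In each gene the groups did not overlap. TLE1 lost its call in 1 of the 6 fits without 1 array. TLE2, TLE4, TLE5 and TLE6 did not pass, with log2 changes of 0.26, 0.15, -0.11 and 0.26.

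Of 24 histone deacetylase and acetyltransferase genes 1 rose and 2 fell, against 1.03% and 0.586% of all genes. The list had a median log2 change of -0.03. HDAC9, a class IIa deacetylase, read 419, 428 and 414 with DMSO and 233, 244 and 231 with ATRA, 1.78-fold lower (-0.83 ± 0.11, adjusted p = 1.1e-05). HDAC4, of the same class, fell 1.27-fold with an adjusted p of 0.044 and did not pass in 5 of the 6 fits without 1 array, in the fit of only the arrays compared, with an intensity trend and with the replicate block. KAT6B, an acetyltransferase, rose 1.85-fold from 157 to 291 (0.88 ± 0.09, adjusted p = 7.6e-08; 0.54 with the mean of its probe sets). RCOR1, the REST corepressor, named after its values were seen, was 1.32-fold lower, from 1041 to 787 (adjusted p = 0.0032).

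Polycomb genes of the non-canonical complex were chosen for mention after their values were seen. PCGF1 read 760.3, 777 and 845 with DMSO and 1231, 1233 and 1437 with ATRA (1.63-fold higher, adjusted p = 8.5e-05), and RYBP read 642, 543 and 478 against 745, 833 and 790.1 (1.43-fold higher, adjusted p = 0.0026). JARID2, a cofactor of the complex that methylates histone H3, rose 1.63-fold (0.71 ± 0.09, adjusted p = 1.2e-05). It was the called one of 19 genes on the polycomb and DNA methylation list, against 1.03% of all genes higher and 0.586% lower. The 19 had a median log2 change of -0.02.

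Transcription factors of the sympathetic lineage and the neural crest moved with small folds. Of 30 measured, 5 rose and 1 fell, against 1.03% and 0.586% of all genes. The list had a median log2 change of 0.03. GATA3, which helps to specify noradrenergic neurons, read 3429, 3411 and 3123 with DMSO and 2051, 2152 and 2137 with ATRA, 1.57-fold lower (-0.65 ± 0.11, adjusted p = 4.0e-04). PHOX2A, another noradrenergic factor, went the other way, from 1724 to 2322 (1.35-fold higher, adjusted p = 0.0087; lost in 2 of the 6 fits without 1 array). SOX4, SNAI1 and TWIST1, factors of neural crest and migrating cells, rose 1.43-fold, 1.67-fold and 1.31-fold; SNAI1 rose from 49.3 to 82.0 with a log2 change of 0.74, or 0.49 with a pseudocount of 32, and TWIST1 lost its call in 4 of the 6 fits. MAB21L1 rose 1.33-fold, from 2324 to 3089.9 (adjusted p = 0.0055).

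MYCN, the amplified oncogene of this line, was slightly lower by its brightest probe set. This probe set read 7293, 7533 and 7246 with DMSO and 5994, 6099.7 and 6224 with ATRA. The groups did not overlap, and the fold was 1.20 (log2 change -0.27 ± 0.07, adjusted p = 0.041). The dimmer probe sets of MYCN had log2 changes of -0.50 and -0.61, larger in size, and neither passed. The call of MYCN was lost in every fit without 1 of the 6 arrays, with the mean of its 3 probe sets and in the fit of only the arrays compared. MLX, the MAX-like partner of MXD and Mondo factors, was 1.24-fold lower (adjusted p = 0.019; lost in 3 of the 6 fits without 1 array). Of 11 genes of the MYC, MAX and MXD network these 2 fell and 0 rose, against 0.586% and 1.03% of all genes. The list had a median log2 change of -0.12.

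Genes that build ribosomes lay slightly below their DMSO levels as a group, with few calls. Of 29 nucleolar and ribosome biogenesis genes 27 had negative log2 changes, against 6347 of all 11940 genes, and their median was -0.17. A single one passed, where 0.586% of all genes fell and 1.03% rose. This was RRS1, needed for the large subunit. It read 2400.2, 2432 and 2342 with DMSO and 1931, 2013 and 1793 with ATRA (1.25-fold lower, adjusted p = 0.023). Its call was lost in 5 of the 6 fits without 1 array. Outside the list, and seen after the fact, the RNA polymerase subunit genes POLR1E, POLR1G and POLR3E were 1.41-fold, 1.50-fold and 1.34-fold lower, each losing its call in 4 or 5 of the 6 fits. The median of the list was -0.09 at 24 h, where 5 of its genes were lower and 1 higher, against 6.03% lower and 12.5% higher of all genes.

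Among genes with a single symbol the largest falls were in KCTD12 and BEGAIN. KCTD12, an auxiliary subunit of GABA-B receptors, read 389, 436 and 383 with DMSO and 193, 194 and 176 with ATRA, 2.14-fold lower and with groups far apart (log2 change -1.10 ± 0.10, adjusted p = 2e-08). BEGAIN, a protein of the postsynaptic density, read 248, 278 and 249 against 124, 116 and 141, 2.03-fold lower (-1.02 ± 0.14, adjusted p = 3.1e-05). PDE9A, which degrades cyclic GMP, went from 203 to 112 (1.81-fold lower, adjusted p = 0.0013). ADRA2C, an adrenergic receptor and, with KCTD12, one of the 2 genes of the neurotransmitter receptor list called lower, was 1.46-fold lower (adjusted p = 0.016; lost in 4 of the 6 fits without 1 array).

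SMCO4, a small membrane protein, read 1359, 1370 and 1377 with DMSO and 755, 783 and 805 with ATRA (1.75-fold lower, adjusted p = 2.2e-06). FJX1, related to the planar polarity kinase four-jointed, was 1.70-fold lower, from 283 to 167 (adjusted p = 1.1e-06). The transcription factors CEBPA and WT1 were 1.57-fold and 1.54-fold lower, from 66.6 to 42.1 and from 118 to 75.9; CEBPA, with a log2 change of -0.65, or -0.41 with a pseudocount of 32, lost its call in 2 and WT1 in all 6 of the fits without 1 array. The remaining named falls, KLHL23, CNNM1, SPATA2L, PISD and MINAR1, lay between 1.53-fold and 1.56-fold. Of these KLHL23 alone kept its call in all 6 fits, with a log2 change of -0.38 in place of -0.65 with the mean of its probe sets.

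A few growth arrest genes rose, while no listed gene of replication or mitosis passed the test. Of 23 CDK inhibitor and growth arrest genes 3 rose and 0 fell, against 1.03% and 0.586% of all genes. The list had a median log2 change of 0.06. CCNG2, a cyclin of quiescent cells, read 66.3, 68.1 and 52.7 with DMSO and 111, 112 and 111 with ATRA (1.79-fold higher, adjusted p = 8.3e-06). GADD45A, a DNA damage and growth arrest gene, rose 1.68-fold from 538 to 903 (adjusted p = 2.7e-06). TOB1, an antiproliferative adaptor, rose 1.29-fold, a call lost in 4 of the 6 fits without 1 array. CDKN1A, which inhibits cyclin-dependent kinases, read 154, 129 and 92.7 with DMSO and 124, 165 and 153 with ATRA, with overlapping groups (0.25 ± 0.22, adjusted p = 0.96).

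Of 43 DNA replication genes and 39 genes of G2 and mitosis 0 passed by limma at 6 h, with 4 and 2 at an unadjusted p under 0.05 and median log2 changes of -0.00 and 0.04. MKI67, a marker of dividing cells, had one of -0.02 (adjusted p = 1). At 24 h 26 of the replication genes and 30 of the mitotic genes were lower with ATRA and 0 higher, against 6.03% lower and 12.5% higher of all genes. By limma 0 of 15 catecholamine genes, 0 of 22 neuropeptide and granin genes and 0 of 29 synaptic vesicle genes passed at 6 h, with 4, 0 and 3 at an unadjusted p under 0.05. TH and DBH, the enzymes of catecholamine synthesis, had log2 changes of 0.01 and -0.04 (adjusted p = 1 for both). Of 37 neuronal cytoskeleton and neurite genes 1 rose. For all these lists the shares over all genes at 6 h were 1.03% higher and 0.586% lower. The gene that rose was DPYSL3, a microtubule-associated protein of growth cones. It read 538, 459.7 and 513 with DMSO and 729, 768 and 728 with ATRA (1.48-fold higher, adjusted p = 3.2e-04). At 24 h the calls were 7 up and 0 down for the catecholamine list, 9 and 2 for neuropeptides and 16 and 4 for the cytoskeleton, against the same 12.5% up and 6.03% down.

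Lists outside the main themes held few calls, where 1.03% of all genes rose and 0.586% fell. Axon guidance genes had 1 rise of 52, EPHA2, from 30.4 to 49.1 (a log2 change of 0.66, or 0.37 with a pseudocount of 32, where the call was lost), and integrins and laminins 1 of 23, ITGB5 (1.73-fold, adjusted p = 3.1e-05). Integrated stress response genes had 2 rises, GDF15 and DDIT4, and 2 falls, ATF3 and TRIB3, of 25; GDF15 lay at 22.8 with DMSO, at background, and its call was lost in 5 of the 6 fits without 1 array and with a pseudocount of 32 (a log2 change of 0.30 in place of 0.61). Metallothioneins, with 0 of 9 called by limma and 0 at an unadjusted p under 0.05, had a median log2 change of -0.23, and 8 were negative. Voltage-gated and other ion channels, Notch pathway genes and sterol and fatty acid synthesis genes held 0 calls by limma of 40, 21 and 21 genes, with 3, 2 and 4 at an unadjusted p under 0.05. Over all genes 973 had such a p.

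**Figure D3:**
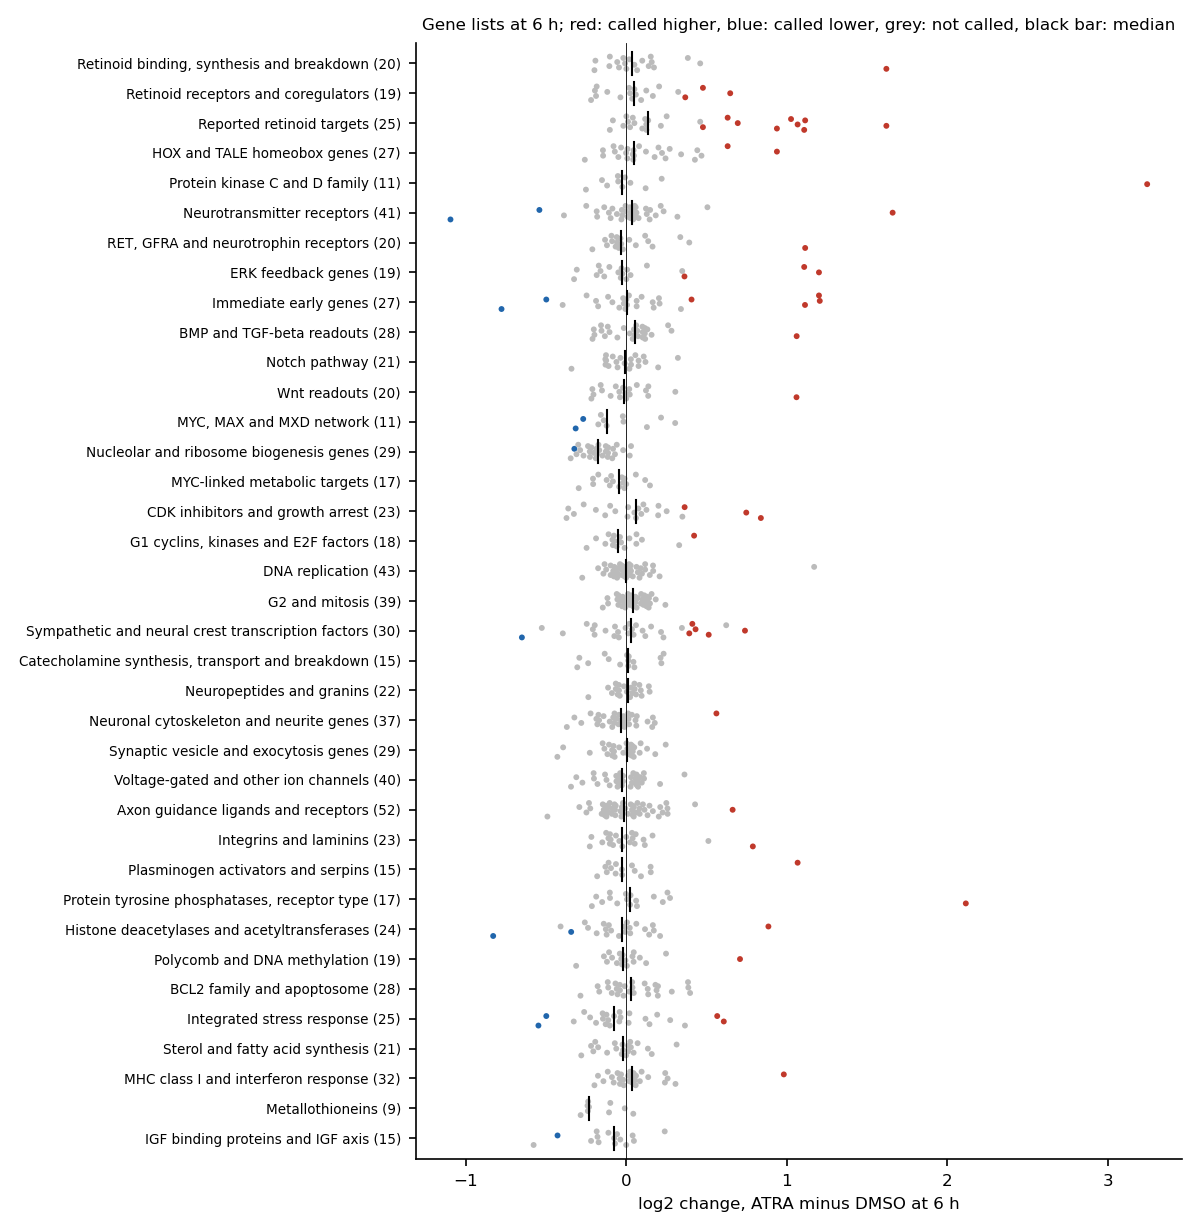
Log2 change with ATRA at 6 h (x axis) of each measured gene, by list (rows, with the number measured); red and blue points passed the test upward and downward, grey did not, and black bars are medians. Medians lie near 0 in nearly all rows, with the reported retinoid targets at 0.14, the nucleolar genes at -0.17 and the metallothioneins at -0.23, and most points past 0.5 on the right are single called genes.

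The same agent, dose and time were also measured in cells given ATRA with VPA against cells given VPA alone at 6 h. Their arrays did not enter the log2 changes given above, but they did enter each gene's spread, which both tests share. These arrays called 68 genes (0.57% of all), 54 higher and 14 lower. Of the 123 rises with ATRA alone 121 had the same sign there and 51 were called, and of the 70 falls 68 had the same sign and 7 were called. The changes were smaller, with a median of 0.45 in place of 0.65 for the rises and -0.24 in place of -0.49 for the falls. The genes had been chosen by their changes with ATRA alone, so these medians do not stand on an equal footing. All 27 rises of 2-fold or more kept their sign and 23 were called, as were both falls of 2-fold or more. Seen from the other side, 58 genes were called alike in both, which is 85.3% of the 68 and 30.1% of the 193. Of the 68 genes 67 had the same sign. A gene of low shared spread is more easily called in both, so the counts of shared calls do not come from independent tests.

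PRKCH again led, at 38.7, 39.2 and 28.9 with VPA and 203, 217 and 195 with both agents (log2 change 2.51, adjusted p = 1.6e-13). RARA read 160.4, 149 and 166 against 335, 293 and 277 (0.92, adjusted p = 4.8e-07), and RET 743, 865 and 959 against 1521, 2276 and 2501 (1.27, adjusted p = 1.8e-06). The 7 falls called in both were KCTD12, HDAC9, ARC, GATA3, BEGAIN, ENC1 and DEPTOR. HDAC9 read 243, 282 and 240.5 with VPA and 179, 129.6 and 131 with both (-0.81, adjusted p = 2.7e-05), and GATA3 2834, 2832 and 2532 against 1946, 1627 and 1409 (-0.73, adjusted p = 1.1e-04). In each of these genes the 2 groups were apart. For MYCN the value was -0.25 (adjusted p = 0.12), and CLMN, the largest rise not called with VPA present, one of 0.70 (adjusted p = 0.11).

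**Figure D4:**
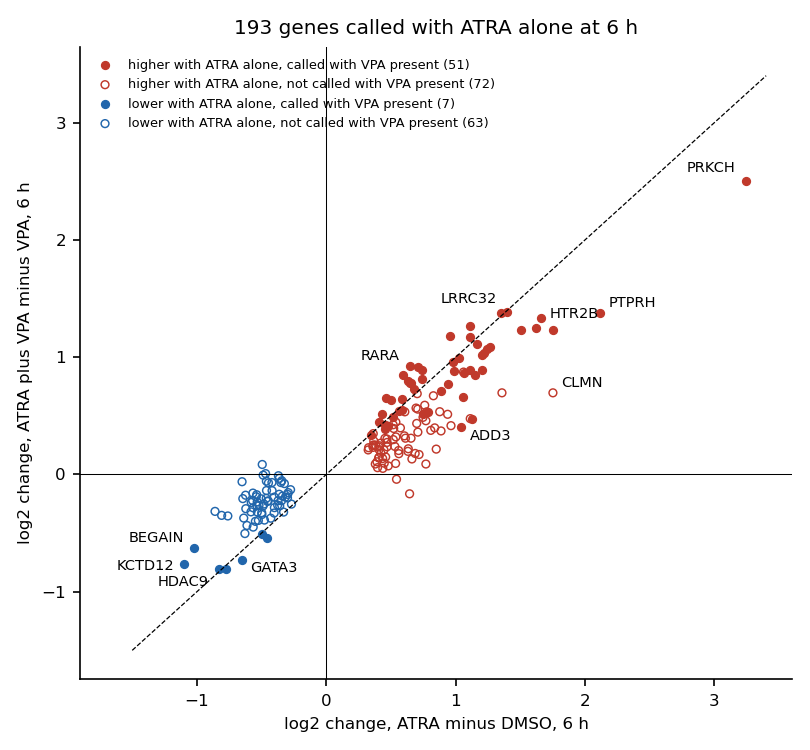
Log2 change with ATRA alone (x axis) against the change when ATRA was added to VPA (y axis) at 6 h for the 193 genes; filled points were also called with VPA present and the dashed line marks equal changes. Of the points 121 red and 68 blue ones lie on the same side of 0 on both axes, with medians of 0.45 and -0.24 on the y axis.

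Replicate 1 of ATRA with VPA had a log2 ratio of 3' to 5' control probe sets of 0.91, against 0.19 and 0.06 in the other replicates. Without replicate 1 118 rises and 69 falls kept their sign, and 46 and 9 were called. Whether the change with ATRA differed between cells with and without VPA was tested as an interaction: limma called 0 of 11940 genes, with 282 at an unadjusted p under 0.05 and a lowest adjusted p of 0.055; other settings gave 0 to 3, and 1 was called without the array of high ratio. VPA itself called 1332 genes against the same DMSO arrays (11.2% of all, 6.46% upward and 4.7% downward). Since these arrays are shared, the values are only set side by side: with VPA alone PRKCH had a log2 change of -0.80, HTR2B -0.66, RARA -0.61, HDAC9 -0.72, CRABP2 0.50 and RET -0.21.

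The later times were each compared with their own DMSO arrays. At 24 h, against DMSO of that time, 111 of the 123 rises were called higher and 0 lower, and of the 70 falls 35 were called lower and 6 higher. Calls were common by then, at 18.5% of all genes, of which 12.5% were upward and 6.03% downward. The 146 genes called alike at both times are 75.6% of the 193 and 6.6% of the 2213 called at 24 h. At 72 h, when 30.9% of genes were called, 10.7% upward and 20.2% downward, 96 rises were called higher and 5 lower, and 47 falls lower and 8 higher. At that time 108 of the rises and 60 of the falls had the same sign as at 6 h.

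The change at 24 h exceeded that at 6 h, by a test of the difference, for 48 of the rises and was smaller for 6, with no called difference for 69. That test called 6.09% of all genes, 4.6% upward and 1.49% downward; at 72 h it called 17.3%, 5.57% upward and 11.8% downward. HTR2B reached a log2 change of 4.55 at 24 h and 3.05 at 72 h, CRABP2 4.08 and 3.73, AQP3 3.62 and 2.76, IER3 3.58 and 2.70, and DUSP6 3.53 and 4.25, from 1.66, 1.62, 1.11, 1.20 and 1.11 at 6 h. CYP26A1 and CYP26B1, not called at 6 h, reached 3.08 and 3.75 at 24 h and 4.73 and 4.96 at 72 h. Other rises had no called difference from 6 h: for TLE3 the log2 changes were 1.24, 1.28 and 0.85 at the 3 times, for S1PR1 1.13, 1.11 and 1.03 and for RARA 0.65, 0.69 and 0.45.

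Some rises did not last. Against 6 h the change at 72 h was smaller or turned for 19 of the 123 rises. It was larger for 33 and without a called difference for 71. LRRC32 had log2 changes of 1.40, 0.57 and -0.36 at 6, 24 and 72 h, and its difference between 72 h and 6 h was -1.76 (adjusted p = 8.4e-05). SNAI1 had 0.74, -0.04 and -0.02, with called differences at both times (adjusted p = 0.0077 and 0.0072). NR2F1, TOB1, MID1, NID2 and EPAS1 turned by 72 h to log2 changes of -0.56, -1.20, -0.66, -1.40 and -0.45, each called lower; the last 3 were named for this turn after their values were seen.

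Among the falls, 7 were larger at 24 h, 19 smaller or turned and 44 without a called difference; at 72 h the numbers were 13, 13 and 44. KCTD12 deepened to -2.79 and -3.03, and PLPPR4, a phospholipid phosphatase-related protein of neurons, went from -0.40 to -1.56 and -2.76. GATA3 stayed lower, at -0.75 and -1.17. FJX1 returned to 0.12 and -0.02, BEGAIN had 0.27 and -1.03, and SPATA2L and TNFRSF21, a death receptor, turned to 0.70 and 0.82 at 24 h and to 1.12 and 0.58 at 72 h.

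Single arrays moved the later counts. DMSO 24 h replicate 1 had a median intensity of 43.63, and all other arrays of ATRA or DMSO at any time had medians of 53.15 or more. Without it 104 rises were called higher at 24 h, 41 rises were larger and 7 smaller or turned, and of the falls 31 were called lower, 5 were larger, 12 smaller or turned, and 3 turned in place of 6 (PFKFB3, SPATA2L and TNFRSF21). After a second quantile normalization 2 falls turned, SPATA2L and TNFRSF21. The test of 24 h against 6 h called 618 genes without this array and 1087 without DMSO 24 h replicate 3, in place of 727. Without DMSO 72 h replicate 2 the test of 72 h against 6 h called 1285 genes in place of 2069. The log2 ratio of 3' to 5' control probe sets was also higher later. Its means were 1.05 for DMSO and 0.89 for ATRA at 24 h and 1.06 and 1.82 at 72 h, against 0.27 and 0.20 at 6 h. With this ratio as a covariate the test of 24 h against 6 h called 852 genes, among them all 727, and that of 72 h called 1399, of which 1262 were among the 2069. At 24 h the 48, 6, 7 and 19 genes above all kept their calls with it. At 72 h 30 of 33 larger rises, 15 of 19 smaller or turned rises, 13 of 13 larger falls and 10 of 13 smaller or turned falls did.

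**Figure D5:**
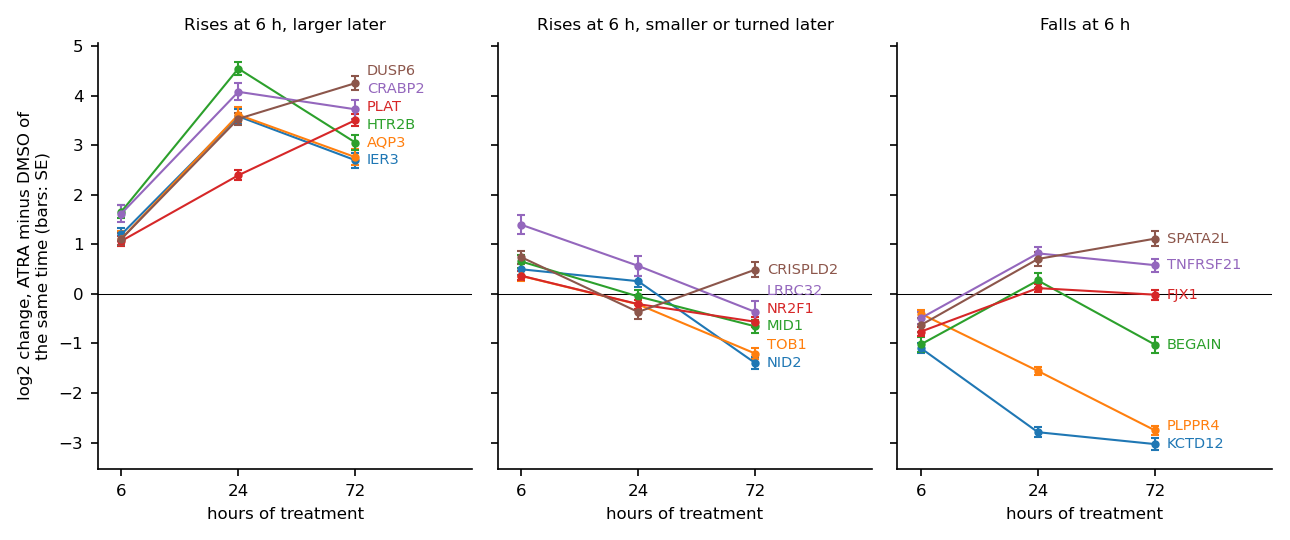
Log2 change with ATRA against DMSO of the same time (y axis, bars are SE) at 6, 24 and 72 h (x axis, not to scale) for 18 genes called at 6 h. The left panel holds rises that were larger later, the middle one rises that shrank or turned, with NID2 at -1.40 by 72 h, and the right one falls that deepened, such as KCTD12, or turned, such as SPATA2L.

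Promoter sequence was read for the genes that moved together, since retinoic acid receptors bind direct repeats of AGGTCA with spacers of 1, 2 or 5 bases. RefSeq promoters on GRCh38.p14, from 250 bases before to 50 after the start, matched 9592 of the 11940 genes, 99 of the 123 rises and 54 of the 70 falls. On either strand AGGTCA itself occurred in 10.6% of all promoters, in 12.1% of the rises and in 11.1% of the falls, and in 0 of the 20 rises of 2-fold or more that had a promoter. The exact repeats AGGTCANAGGTCA, AGGTCANNAGGTCA and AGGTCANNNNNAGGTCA occurred in 3 of all 9592 promoters and in 0 of the called genes.

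With up to 1 mismatch in each copy a repeat was found in 3.37% of all promoters, in 5 of the 99 rises (5.05%) and in 2 of the 54 falls (3.7%), shares too close to the background to set the called genes apart. The 5 in rises are shown to let the letters be compared with the repeat. They are written 5′ to 3′ on the strand of the match, with both copies in capitals and the spacer in lower case:
FAM163A, chr1:179727776-179727792, minus strand: AGTTCAagattATGTCA
NAALAD2, chr11:90134654-90134670, plus strand: AGGCCAcccagAGCTCA
GDF15, chr19:18386153-18386169, plus strand: TGGTCAgtcccAGCTCA
RAB11FIP2, chr10:118046959-118046971, plus strand: AGGTCAgGGGTCA
GCC2, chr2:108449176-108449188, minus strand: AGGTCAaAGGTCG

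FAM163A, first described as a neuroblastoma-derived secretory protein, holds the first of these at its start. It read 1020.1, 884 and 910.1 with DMSO and 1772, 1794 and 1891 with ATRA (log2 change 0.96 ± 0.09, adjusted p = 2e-08), and with VPA present the change was 1.18 (adjusted p = 5.7e-10). The other 4 rose between 1.35-fold and 1.75-fold. A match of letters is a description of the sequence and does not show that a receptor binds there, and enhancers outside this window were not searched.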

How the data were processed

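Gene expression was measured on Affymetrix arrays, 1 per sample. The authors deposited linear intensities of 22930 probe sets, summarised and normalized by RMA per the submitters' processing notes, with the version not given in the sources used here. They ran from 9.48 to 26442. The number of arrays, not a read depth, limits the precision. Control probe sets (524) and probe sets naming several genes (125) or none (2866) were left out of the gene test; the last 2 kinds were tested apart. Each of 11940 genes was represented by its probe set of highest mean over all arrays.

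Intensities plus 1 were put on the log2 scale. A model with 12 groups was fitted to all 35 arrays with limma 3.58.1 (R 4.3.3), with eBayes and Benjamini-Hochberg adjustment within each contrast at 0.05; every adjusted p is from this fit unless another is named. Tables and plots used Python 3.11.15, pandas 2.3.3, numpy 2.4.6 and matplotlib 3.10.9. On simulated data, 100% of planted log2 changes of 1 were called, and 74% and 72% of those of 0.5 and -0.5 (50 planted each), with 11 calls among the other of 11940 genes. Genes were named by a rule: the 20 largest rises and 15 largest falls among calls without overlap, up to 4 called members of each list by size, a short fixed set of retinoid, differentiation and division genes, and the 5 largest each way in other contrasts. Genes named outside the rule (among them ADD3, TLE1, RCOR1, PCGF1, RYBP, MAB21L1, the RNA polymerase genes, ENC1, DEPTOR and the genes of the promoter search, the HOX, GFRA and ALK examples and genes that turned with time) were chosen after their values were seen. The members and lists were chosen with earlier results of these data known. Alternatives changed the block, the arrays fitted, the filter, the probe set rule, the prior, array weights, normalization, pseudocount and an RNA quality covariate, and left out each array. Results for 1 gene list are not reported here.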

Additional observations from a re-analysis of the deposited data

Results flagged for a closer look

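The change with ATRA against DMSO of the same time differed from that at 6 h, by a limma test of the difference, in 727 genes at 24 h and 2069 at 72 h. A tested difference between times flagged each gene below, given as the later log2 change minus that at 6 h. The genes called at 6 h share their 6 h values with the choice of genes, and the higher 3' to 5' ratio of the later arrays moves with time. With that ratio as a covariate all 16 genes given for 24 h kept their call and direction, as did 21 of the 23 given for 72 h; FOLR1 had -1.41 (adjusted p = 0.14) and TAF9B -0.83 (adjusted p = 0.22).

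The largest later gains at 24 h were CYP26B1 3.37, PRSS12 3.18, HTR2B 2.89, CYP26A1 2.62 and AQP3 2.50. The largest later losses were KCTD12 -1.70, FBN1 -1.38, CTSV -1.31, SLC1A3 -1.30 and NELL1 -1.30. Of the genes that fell at 6 h and were called higher at 24 h, SPATA2L differed by 1.33, TNFRSF21 by 1.31, PFKFB3 by 0.99, IFRD1 by 0.79, ENC1 by 0.74 and PNMA8A by 0.74.

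At 72 h the largest gains were CALCB 4.64, CYP26B1 4.58, PRSS12 4.41, STMN4 4.29 and CYP26A1 4.27. CALCB encodes a calcitonin gene-related peptide and STMN4 a neuronal stathmin. The largest losses were FOLR1 -2.80, PLPPR4 -2.35, FBN1 -2.32, TAF9B -2.25 and SLC18A2 -2.18, the last being a vesicular monoamine transporter. Falls of 6 h that were called higher at 72 h differed by 1.74 (SPATA2L), 1.42 (TRIB3), 1.10 (PFKFB3), 1.07 (TNFRSF21), 0.87 (ATF3), 0.80 (IFRD1), 0.79 (PRNP) and 0.49 (IGSF3). Rises of 6 h that were called lower at 72 h differed by -1.89 (NID2), -1.57 (TOB1), -1.31 (MID1), -0.93 (NR2F1) and -0.86 (EPAS1).

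Outside the gene test, 39 of 2991 probe sets without a single gene symbol (1.3%) passed with ATRA against DMSO at 6 h, 27 higher and 12 lower. They were flagged as a signal in probe sets that the gene comparison does not use. The largest rise among them went from 87.6, 102 and 82.0 with DMSO to 512, 464 and 474 with ATRA. Its log2 change was 2.41 (limma, adjusted p over all probe sets = 2.3e-14), above that of PTPRH. The largest falls among them had log2 changes of -1.59 and -1.21, beyond that of KCTD12.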

How the results depend on the processing

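Array weights moved the counts most: ATRA against DMSO at 6 h had 549 calls in place of 193, 263 up and 286 down, so that 47.9% in place of 63.7% were rises; ATRA added to VPA had 196, the interaction 3 and the difference of 24 h from 6 h 1677. A fit of only the arrays compared gave 113 falls in place of 70 and 456 genes for 24 h against 6 h. The interaction, 0 in the fit reported, had 1 call with the dimmest 33.3% of genes left out, 1 with an intensity trend and robust prior, 2 with a pseudocount of 32 and 1 without DMSO 24 h replicate 1. Leaving out each array in turn gave 109 to 129 calls (83 to 91 up, 20 to 38 down), 49 to 79 for ATRA added to VPA, 0 to 1 for the interaction, 579 to 1087 for 24 h against 6 h and 1285 to 2244 for 72 h against 6 h, the lowest without DMSO 72 h replicate 2 (407 up, 878 down). A second quantile normalization turned the split for 24 h against 6 h from 549 up and 178 down to 431 and 331, and for 72 h from 665 and 1404 to 890 and 933. The cause of these shifts was not tested.

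With the replicate block 181 genes were called, 174 of them among the 193. Same-numbered DMSO and ATRA arrays at 6 h deviated with correlations of -0.23, -0.10 and 0.05, and differently numbered ones with -0.22 to 0.28. With 3 arrays a group these values cannot show whether same-numbered arrays shared a culture or batch.

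Of 68 named called genes none reversed under the 10 settings that keep every array compared, and the fit of only the arrays compared lost the most calls, 7. Signs that turned belonged to uncalled values near 0. Without 1 array at a time the log2 change of RARB ran from -0.02 to 0.08, turning at -0.01 and -0.02; DHRS3 ran from -0.02 to 0.17, NTRK2 from -0.01 to 0.21, TH from -0.06 to 0.11 (-0.02 and -0.00 among the turned), DBH from -0.14 to 0.03 and MKI67 from -0.07 to 0.05 (0.03 also turned). MKI67 had 0.08 with the mean of probe sets, and TH -0.03 with the RNA quality covariate. Genes near background, such as RARB and CYP26B1, limit what can be seen.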

Other observations

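Hypoxia and FOXO factors, which the gene lists did not hold, were looked at after their values were seen. HIF1A read 5510.1, 5558 and 5272 with DMSO and 6663, 7203 and 6955 with ATRA at 6 h, 1.27-fold higher (limma, adjusted p = 0.0033). FOXO3, a factor of quiescent cells, read 399, 456 and 389.6 against 711, 701 and 675, 1.68-fold higher (adjusted p = 2.0e-04). In both genes every ATRA array lay above every DMSO array, and both kept their call in each fit without 1 array. TLX2, a homeobox gene of autonomic neurons, rose 1.57-fold, from 615 to 960.2 (adjusted p = 3.9e-05), and its log2 change with VPA present was 0.78 (adjusted p = 3.2e-06). The lysosomal protease gene CTSB rose 1.50-fold in the same way, from 2530.1 to 3791 (adjusted p = 2.8e-06), and its log2 change was 1.47 at 24 h and 1.89 at 72 h.

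Several uncalled genes had large mean changes with a wide spread. The log2 change of ZNF652 was 1.26, of GINS4 1.17, of GNL3L 1.04 and of AKAP5 1.00, and the noncoding NEAT1 had 0.90.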
